A study of Mus musculus with 4 samples.

Results

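The interleukin-1 family genes described here are Il1a, Il1b, Il1rn, Il1r1, Il1r2, Il1rap, Il18, Il18bp, Il1rl1 and Il1rl2. They were found through the RefSeq accession that the array files give for each probe, which placed 18 probes on these 10 genes, out of 22907 genes named in the same way. The cells were peritoneal exudate cells of mice injected with thioglycollate, which elicits a leukocyte exudate, and the labels call them peritoneal macrophages. RNA was hybridised to 4 single-colour Agilent arrays, with 1 array for each of 4 groups: LysM-St18flox cells after 3 h of LPS, LysM-St18flox cells at 0 h, wild-type cells after 3 h of LPS and wild-type cells at 0 h. LPS is the bacterial lipopolysaccharide that activates Toll-like receptor 4; its dose, the strain, age and number of the mice, and whether the 0 h and 3 h cells came from the same mice are not given in the sources used here. The genotype name joins LysM, the lysozyme M gene whose promoter is commonly used to drive Cre recombinase in macrophages and neutrophils, with a floxed allele of St18, a zinc-finger transcription factor. Cells of other lineages keep the floxed gene in such models, and the labels do not say whether the wild-type mice were littermates or carried either allele.

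IL-1 alpha (Il1a) and IL-1 beta (Il1b) bind the receptor IL1R1 (Il1r1), which then recruits the accessory protein IL1RAP (Il1rap) and signals through MYD88 and IRAK kinases to NF-kB. The receptor antagonist IL-1RA (Il1rn) occupies IL1R1 without signalling, and IL1R2 (Il1r2) is a decoy that binds IL-1 and does not signal. IL-18 (Il18) is neutralised by the secreted binding protein IL-18BP (Il18bp), ST2 (Il1rl1) is the receptor of IL-33, and Il1rl2 encodes the receptor of the IL-36 cytokines; both also use IL1RAP. Pro-IL-1 beta transcription after Toll-like receptor stimulation is a textbook response of macrophages.

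The promoters shown are those of the ligand pair with the largest LPS differences, Il1a and Il1b, and of Il1rl1. Among the 10 genes named above, Il1rl1 had the largest genotype difference measured on both arrays. Each line gives the 250 bases upstream of a RefSeq start site on the gene's own strand, 5′ to 3′, in build GRCm38.p6. The windows are chr2:129309973-129310222 on the minus strand for Il1a, chr2:129371140-129371389 on the minus strand for Il1b, and chr1:40429320-40429569 and chr1:40439379-40439628 on the plus strand for the 2 windows of Il1rl1. Capitals mark every match to the motifs described after the sequences.
Il1a: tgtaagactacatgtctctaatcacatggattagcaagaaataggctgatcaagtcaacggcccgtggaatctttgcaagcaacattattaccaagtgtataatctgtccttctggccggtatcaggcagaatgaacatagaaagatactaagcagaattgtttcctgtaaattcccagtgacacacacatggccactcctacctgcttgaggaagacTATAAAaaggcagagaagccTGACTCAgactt
Il1b: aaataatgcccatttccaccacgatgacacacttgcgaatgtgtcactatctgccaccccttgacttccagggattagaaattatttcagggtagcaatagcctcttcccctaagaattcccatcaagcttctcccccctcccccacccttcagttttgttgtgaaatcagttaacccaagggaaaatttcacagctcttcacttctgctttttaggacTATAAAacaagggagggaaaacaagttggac
Il1rl1 window 1: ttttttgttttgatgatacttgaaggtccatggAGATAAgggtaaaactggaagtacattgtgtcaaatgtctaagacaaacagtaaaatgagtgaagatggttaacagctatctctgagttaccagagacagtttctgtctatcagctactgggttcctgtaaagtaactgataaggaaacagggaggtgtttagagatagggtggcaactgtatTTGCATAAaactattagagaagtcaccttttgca
Il1rl1 window 2: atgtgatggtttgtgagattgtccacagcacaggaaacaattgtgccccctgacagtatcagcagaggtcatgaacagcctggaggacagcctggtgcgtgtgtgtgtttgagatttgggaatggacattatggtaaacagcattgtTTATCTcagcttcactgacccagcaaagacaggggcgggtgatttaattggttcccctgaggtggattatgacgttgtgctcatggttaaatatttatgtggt
The search covered 14 windows, with at least 1 for each of the 10 genes, and 32841 windows of all genes. The TATA box letters TATAAA, read on the gene's strand, began 32 bases upstream of the Il1a start and 31 bases upstream of the Il1b start, in no other family window and in 7.59% of all windows. The AP-1 letters TGANTCA, searched like all the following on both strands, lay 12 bases upstream of the Il1a start and in 1 Il1rn window, against 6.75% of all windows. The GATA letters AGATAA lay in both Il1rl1 windows, against 9.99% of all windows. The C/EBP letters TTGCNNAA lay in 4 windows, those of Il18bp, Il1r1, Il1rl1 (window 1) and Il1rl2, against 9.57% of all. The NF-kB motif was matched in 1 Il1r1 window (7.25% of all), the GAS letters TTCNNNGAA in the Il1r2 window (7.02% of all), and the ISRE motif in none (2.98% of all). No matches overlapped one another, and a match describes letters in this window only, not binding.

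Values are log2 processed signals minus the 75th percentile of their own array, so that 0 is the level of the 75th-percentile spot and a value of one gene cannot be set against that of another. The summed levels of marker lists add the unlogged values of genes above background, so the brightest probes weigh most. Such a sum is set only against that of the same list on another array. A gene is represented by its brightest probe. A gene was measured where both arrays of a comparison had that probe well above background, and it was called higher or lower where they differed by 2-fold or more. With 1 array a group no difference has a replicate check, so no p-value is given. The errors printed after ± are propagated from the scanning software's own signal error. They are its estimate for a spot and do not cover animals or cultures. For each member difference this error was above 0.20. Repeated spots of a probe on the same array spread less, with a standard deviation of 0.05 for a log2 difference between single spots. A value within the signal error can thus exceed the spread of repeated spots. The 4 arrays had between 52.2% and 55.6% of spots above background and no saturated spot. The wild-type 0 h array stood apart: over 4217 genes with a second measured probe, the log2 gap between the 2 probes departed from its median over the remaining arrays by 0.39 (median) on that array and by 0.14 to 0.16 on the other 3. It enters the wild-type LPS response and the genotype difference at 0 h, and not the other 2 comparisons. Through the wild-type LPS response it also enters the difference between the LPS responses of the genotypes. Each LPS response shares an array with each genotype difference, and genotype, mouse and cell preparation cannot be told apart. St18 itself had 1 of 2 probes above background, in wild-type cells only, and LysM-St18flox cells had at least 8.48-fold less of it at 3 h and 7.07-fold less, as a minimum, at 0 h; where that probe lies relative to the floxed part is not given. All 11 macrophage markers were above background on all 4 arrays.

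LPS came with much higher Il1a and Il1b signals in both genotypes, moderately higher Il1rn, Il18 and Il18bp, and differences under 2-fold at Il1r1, Il1r2 and Il1rl1. In LysM-St18flox cells 6 of the 9 measured members were at least 2-fold higher after LPS (8.12% of 12973 genes were) and 0 were lower (8.97% of genes were). In wild-type cells 5 of 9 were higher by 2-fold or more (9.04% of 12585 genes) and 0 were lower (11.6% of genes). The median member was 1.45 higher on the log2 scale in LysM-St18flox cells, against -0.09 for all genes, and 1.20 higher in wild-type cells, against -0.11 for all genes. Il1rl2 was the member outside these counts in all comparisons.

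**Figure D1:**
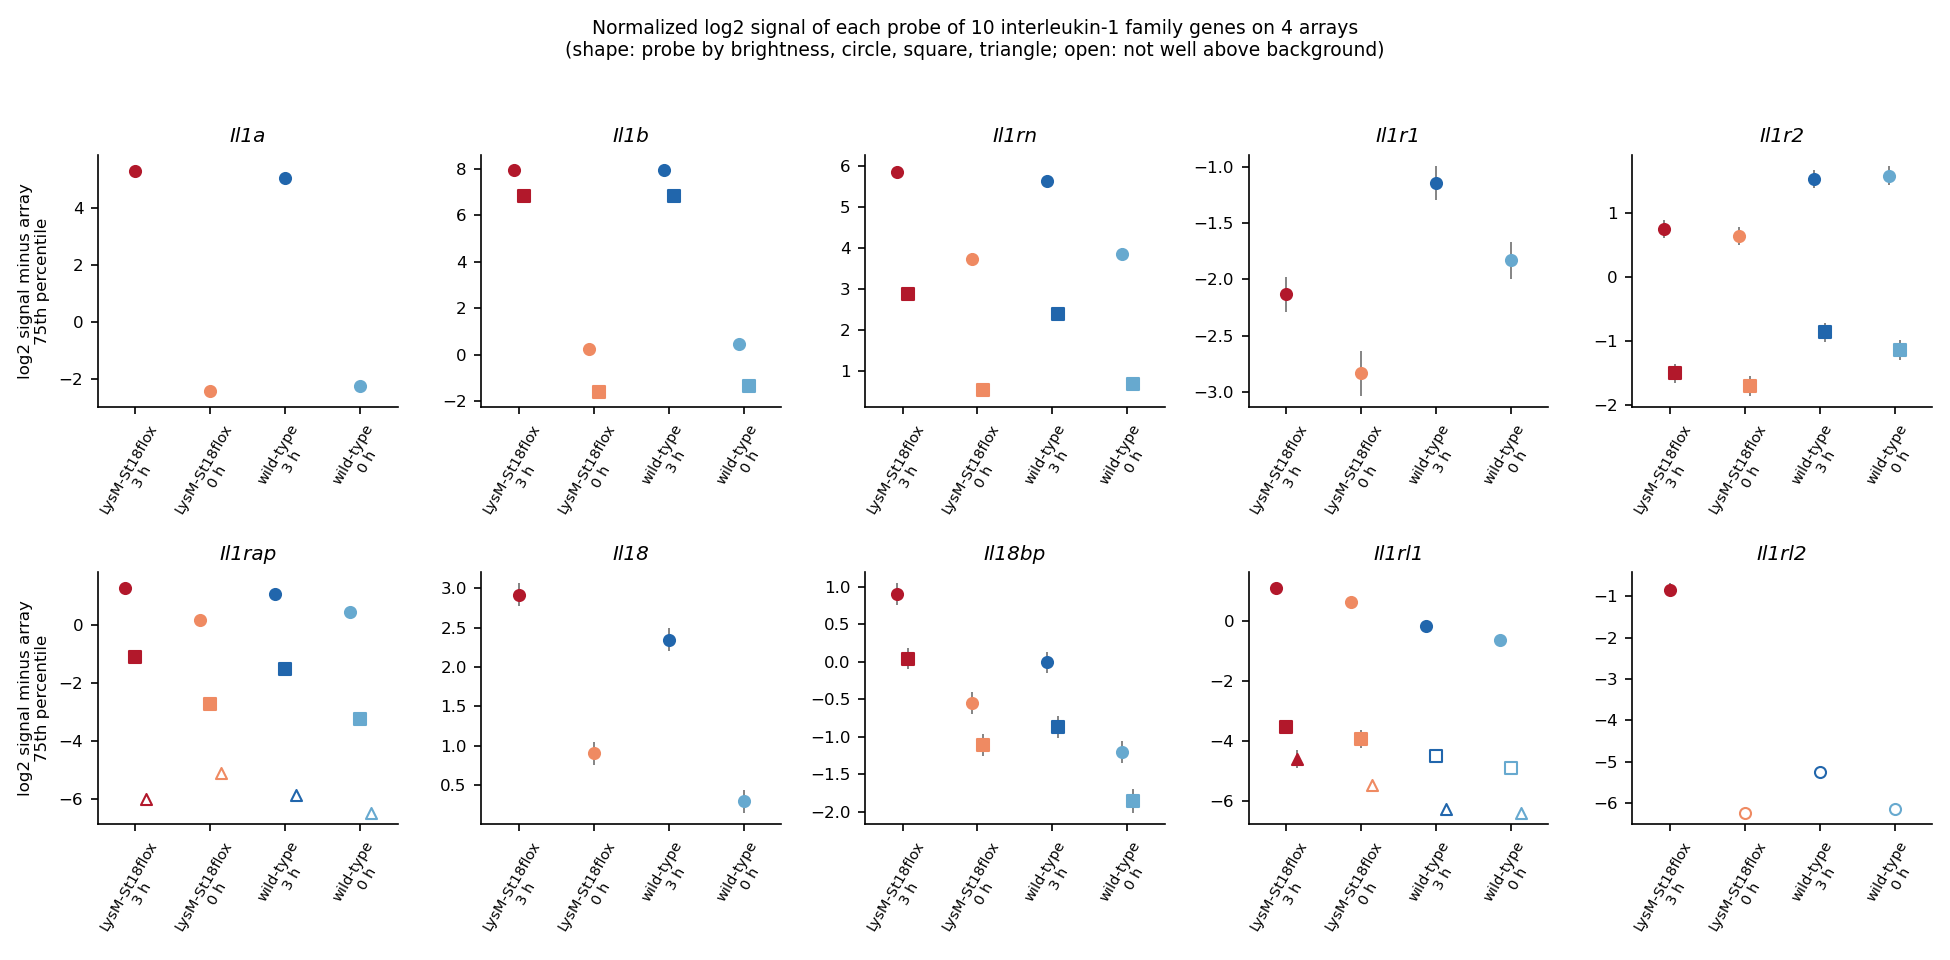
Normalized log2 signal of all 18 probes of the 10 genes on the 4 arrays, with 0 at the array's 75th percentile. Shapes order a gene's probes by brightness (circle, square, triangle), each point is 1 array, bars are the software's signal error and open points were not well above background. Il1a and Il1b separate the 3 h arrays from the 0 h arrays by more than 7 log2 units, and Il1rl2 is above background on the LysM-St18flox 3 h array alone.

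Il1a, the agonist that is active also as its precursor and can act from the cell surface or after cell damage, had values of 5.33 at 3 h and -2.42 at 0 h in LysM-St18flox cells. In wild-type cells it read 5.08 at 3 h and -2.26 at 0 h. The unscaled processed signals behind these values were 35462 and 200 in LysM-St18flox cells, and 25606 and 140 in wild-type cells. The 3 h array thus lay above the 0 h array in each genotype, with differences of 7.75 ± 0.22 (215-fold) in LysM-St18flox cells and 7.35 ± 0.22 (163-fold) in wild-type cells. These ranked 9th among the genes measured in LysM-St18flox cells and 11th among those measured in wild-type cells.

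Il1b, whose product must be cleaved, classically by caspase-1, before release, read 7.96 at 3 h and 0.23 at 0 h in LysM-St18flox cells. In wild-type cells it read 7.94 at 3 h and 0.45 at 0 h. Its 3 h signals of 219708 in LysM-St18flox and 185482 in wild-type cells were not marked as saturated. The differences were 7.73 ± 0.20 (213-fold, 10th among genes) in LysM-St18flox cells and 7.49 ± 0.20 (180-fold, 9th) in wild-type cells. A second Il1b probe gave 8.46 (352-fold) in LysM-St18flox and 8.20 (294-fold) in wild-type cells, so the 2 probes differ in the size of the ratio and share its direction.

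Il1rn, the antagonist, lay above its array's 75th percentile already at 0 h. It read 5.85 at 3 h and 3.74 at 0 h in LysM-St18flox cells, and 5.65 at 3 h and 3.86 at 0 h in wild-type cells. It was 4.34-fold higher after LPS in LysM-St18flox cells (2.12 ± 0.20) and 3.47-fold higher in wild-type cells (1.80 ± 0.20). The antagonist was thus higher after LPS in both genotypes, by a smaller ratio than the agonists it competes with. The second probe gave 2.34 in LysM-St18flox and 1.72 in wild-type cells.

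Il18 is stored as a precursor in unstimulated macrophages, and its product drives interferon-gamma production by T and NK cells. It read 2.92 at 3 h and 0.90 at 0 h in LysM-St18flox cells, and 2.35 at 3 h and 0.29 at 0 h in wild-type cells. The LPS differences were 2.01 ± 0.20 (4.04-fold) in LysM-St18flox cells and 2.05 ± 0.20 (4.14-fold) in wild-type cells. Il18bp, which encodes its inhibitor, read 0.90 at 3 h and -0.55 at 0 h in LysM-St18flox cells, and -0.01 at 3 h and -1.21 at 0 h in wild-type cells. It was 2.74-fold higher after LPS in LysM-St18flox cells (1.45 ± 0.21) and 2.30-fold higher in wild-type cells (1.20 ± 0.21). The cytokine and its inhibitor were therefore both higher at 3 h in each genotype. The second Il18bp probe gave 1.15 in LysM-St18flox and 0.99 in wild-type cells, on either side of the 2-fold line, and with normexp background correction the brightest probe gave 0.95 in wild-type cells, short of it.

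**Figure D2:**
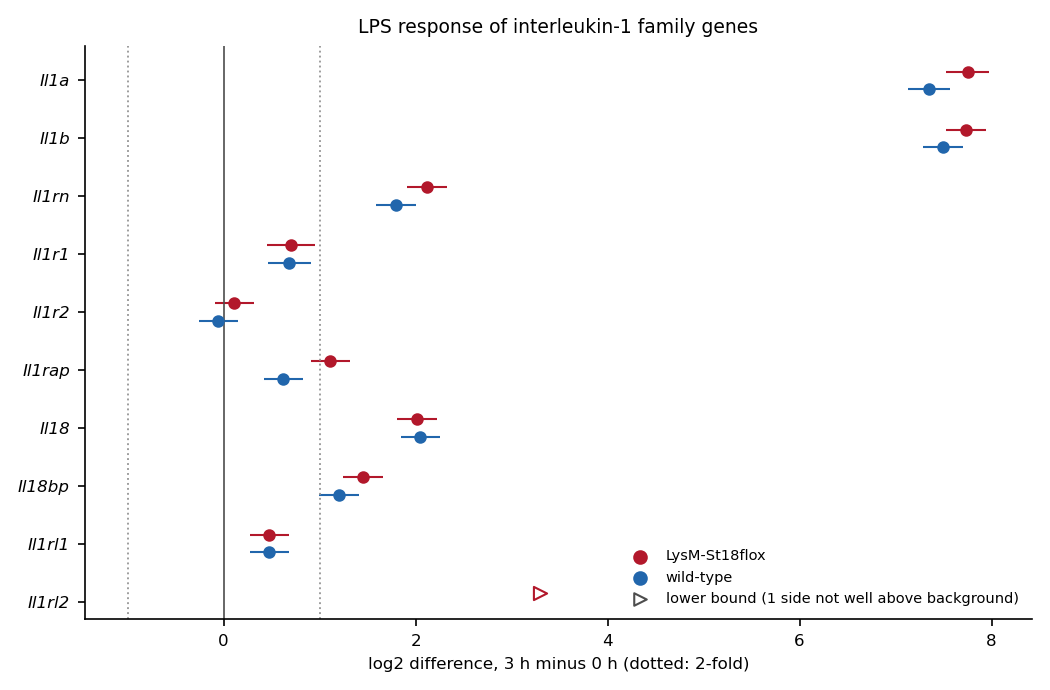
Log2 difference 3 h minus 0 h of each gene in LysM-St18flox cells and in wild-type cells; bars are the signal error propagated from the scanning software, dotted lines mark 2-fold and every point rests on 1 array at each time. Il1a and Il1b lie between 7.35 and 7.75, and Il1r2 lies near 0 in both genotypes.

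The receptors Il1r1, Il1r2 and Il1rl1 stayed under 2-fold with LPS in both genotypes. The signalling receptor Il1r1 lay below the 75th percentile of each array, at -2.13 at 3 h and -2.84 at 0 h in LysM-St18flox cells, and -1.14 at 3 h and -1.83 at 0 h in wild-type cells. Its LPS difference was 0.70 ± 0.25 (1.63-fold) in LysM-St18flox cells and 0.69 ± 0.22 (1.61-fold) in wild-type cells, under the 2-fold line in both. The decoy Il1r2 read 0.76 at 3 h and 0.65 at 0 h in LysM-St18flox cells, and 1.54 at 3 h and 1.59 at 0 h in wild-type cells. Its differences of 0.11 ± 0.20 in LysM-St18flox and -0.06 ± 0.20 in wild-type cells were within the signal error. A second Il1r2 probe gave 0.19 in LysM-St18flox and 0.27 in wild-type cells. Il1rl1, the IL-33 receptor, was 0.48 higher after LPS in each genotype (1.39-fold, errors 0.20 in LysM-St18flox and 0.21 in wild-type cells).

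The accessory chain Il1rap, shared by the IL-1, IL-33 and IL-36 receptors, depended on the probe. Its brightest probe read 1.31 at 3 h and 0.20 at 0 h in LysM-St18flox cells, and 1.09 at 3 h and 0.47 at 0 h in wild-type cells. That is 1.11 ± 0.20 (2.16-fold) in LysM-St18flox cells and 0.62 ± 0.20 (1.54-fold) in wild-type cells, which places the gene on both sides of the 2-fold line. A probe annotated to another RefSeq transcript of Il1rap gave 1.64 in LysM-St18flox cells and 1.72 in wild-type cells, so there both genotypes passed 2-fold. The gap of 1.101 between these 2 probes in wild-type cells was the largest between probes of any member, against a median gap of 0.22 over 21 such pairs. That comparison uses the wild-type 0 h array. The third probe was above background on none of the arrays.

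Il1rl2, the IL-36 receptor, was above background in LysM-St18flox cells at 3 h only. Its single probe had a processed signal of 493 there, against 14.3 in LysM-St18flox cells at 0 h, 19.8 in wild-type cells at 3 h and 9.58 in wild-type cells at 0 h. On the bound computed from the dimmest probes above background, it was at least 9.82-fold higher at 3 h than at 0 h in LysM-St18flox cells, and, at 3 h, at least 11.9-fold higher in LysM-St18flox than in wild-type cells. Both statements rest on 1 probe of 1 array.

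The LPS responses of the genotypes were set side by side for each member. Their difference, LysM-St18flox minus wild-type, lay between -0.04 (Il18) and 0.49 (Il1rap), with errors from 0.29 to 0.33, and 0 of 9 members passed 2-fold, against 5.31% of 12340 genes. The median member differed by 0.24, against 0.03 for all genes. With median scaling these medians were 0.40 and 0.19. All these values use the wild-type 0 h array, which stood apart. The difference of the responses was 0.40 ± 0.31 for Il1a, 0.24 ± 0.29 for Il1b, 0.32 ± 0.29 for Il1rn and 0.25 ± 0.29 for Il18bp. The ratios of Il1a, Il1b, Il1rn and Il18bp were thus slightly larger in LysM-St18flox cells by amounts close to the signal error, and that of the ligand Il18 was not. No array measures the spread between mice. The second probes gave 0.62 for Il1rn and -0.08 for Il1rap.

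**Figure D3:**
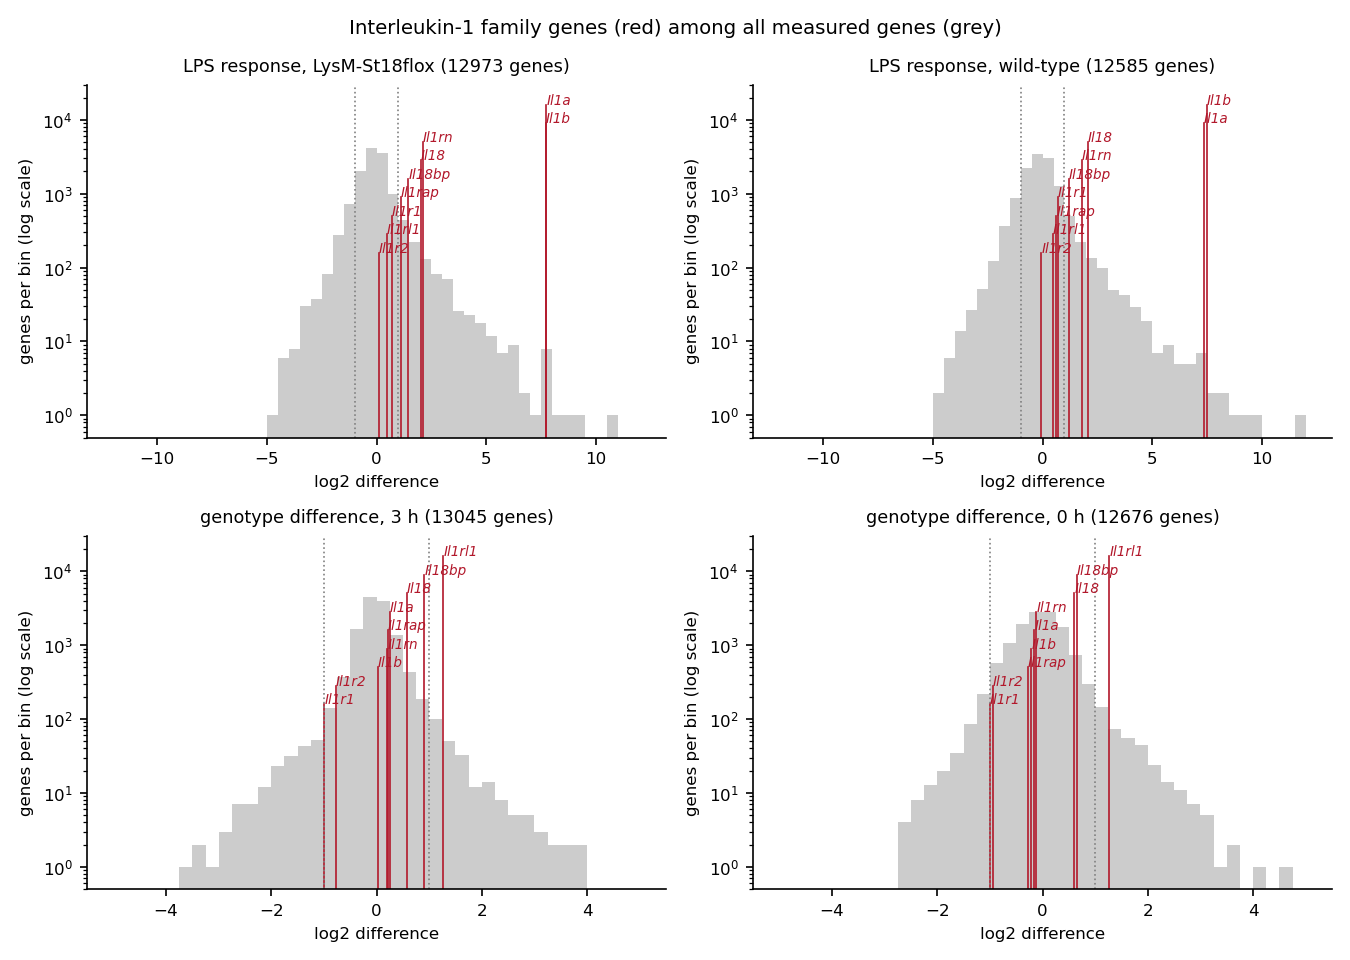
Distribution of the log2 differences of all genes measured in each of the 4 comparisons, with the measured members drawn on it; the horizontal axis is the log2 difference and dotted lines mark 2-fold. Il1a and Il1b lie at the far right of both LPS panels, and Il1rl1 (1.27) is the member farthest right in both genotype panels.

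Related genes were taken from 3 lists. Among 11 other IL-1 family genes with a probe, 4 were above background on none of the arrays (Il1f8, Il1f10, Il1rapl1 and Il1rapl2). The alarmin Il33 read -0.18 at 3 h in LysM-St18flox cells and -0.54 at 3 h in wild-type cells, and was not above background at 0 h in either. The lower limit of its LPS ratio was 15.5-fold in LysM-St18flox cells and 12.2-fold in wild-type cells. A second, dimmer Il33 probe was above background on the LysM-St18flox 3 h array only. Il1f9, which encodes IL-36 gamma, read -2.55 at 3 h in LysM-St18flox cells, where it was not above background at 0 h, against -0.07 at 3 h and -2.68 at 0 h in wild-type cells. On its only probe LysM-St18flox cells were 5.61-fold lower than wild-type cells at 3 h, and lower by a minimum of 2.73-fold at 0 h. After LPS it was higher by a minimum of 2.99-fold in LysM-St18flox cells, and 6.13-fold higher in wild-type cells. Il1f9 was the 1 gene of this list called higher in the LPS response of wild-type cells, of 4 measured (9.04% of all genes were). It was also the 1 gene called lower by genotype at 3 h, of 6 measured (1.40% of all genes were). In the LPS response of LysM-St18flox cells 0 of 2 measured genes were called (8.12% of all genes were higher and 8.97% lower). Il1f6, which encodes IL-36 alpha, was above background at 3 h in both genotypes and at 0 h in neither. The lower limit of its LPS ratio was 1.92-fold in LysM-St18flox cells and 2.39-fold in wild-type cells. A second Il1f6 probe gave lower limits of 2.25-fold in LysM-St18flox cells and 2.98-fold in wild-type cells. Il1f5, the IL-36 receptor antagonist, was above background in wild-type cells at 3 h only, where LysM-St18flox cells were lower by a minimum of 2.33-fold.

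Of 19 genes for the processing and release of IL-1 and IL-18, 19 were measured in LysM-St18flox cells, where 6 were at least 2-fold higher after LPS and 1 lower (median 0.36). In wild-type cells 18 were measured, 5 higher and 1 lower (median 0.39). Of all genes, 8.12% were higher and 8.97% lower in LysM-St18flox cells (median -0.09), and 9.04% and 11.6% in wild-type cells (median -0.11). Mefv, the pyrin gene, was 4.53 higher in LysM-St18flox and 4.95 higher in wild-type cells on the log2 scale. Casp4, the caspase that senses cytosolic LPS, was 3.37 higher in LysM-St18flox and 3.83 higher in wild-type cells, and Nlrp3, the inflammasome sensor, 2.45 higher in LysM-St18flox and 2.54 higher in wild-type cells. Casp1, the protease that matures both cytokines, named after its values were seen, was 1.63 higher in LysM-St18flox and 1.55 higher in wild-type cells. P2rx7, the ATP-gated channel that triggers the inflammasome, was the gene called lower, at -1.33 in LysM-St18flox and -1.24 in wild-type cells. By genotype, Serpinb1a was called in this list at 0 h (1.18 higher in LysM-St18flox), where 3.04% of all genes were higher. At 3 h none of 18 was called (1.82% of all genes were higher and 1.40% lower).

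Of 29 genes of IL-1 receptor signalling, 11 were called higher and 4 lower after LPS in LysM-St18flox cells (median 0.61), and 13 were higher and 6 lower in wild-type cells (median 0.63). With LPS, 8.12% of all genes were higher and 8.97% lower in LysM-St18flox cells (median -0.09). In wild-type cells these shares were 9.04% and 11.6% (median -0.11). The highest ratios in the list were those of Nfkbiz, an inducible nuclear IkB protein, at 5.84 in LysM-St18flox and 5.87 in wild-type cells, and of Tnfaip3, the A20 inhibitor of NF-kB signalling, at 3.94 in LysM-St18flox and 3.99 in wild-type cells. The third highest was Nfkbia, the IkB-alpha gene, in LysM-St18flox cells (3.22) and Nfkb1, the p105 and p50 subunit gene, in wild-type cells (3.96). Jun and Fos, the AP-1 subunits, were lower, with Jun at -2.35 in LysM-St18flox and -2.75 in wild-type cells, and Fos at -1.80 in LysM-St18flox and -2.33 in wild-type cells. The third lowest was Tab1, a partner of the TAK1 kinase, in LysM-St18flox cells (-1.74) and Irak4 in wild-type cells (-1.74). By genotype, Nfkb1 was 1.20 higher and the proximal kinase Irak4 1.21 lower in LysM-St18flox cells at 0 h (-1.21 on the log2 scale), the 2 genes of the list called there. Among all genes 3.04% were called higher and 3.03% lower at 0 h, and 1.82% and 1.40% at 3 h. At 3 h no gene of the list was called, and Nfkb1 differed by -0.10 and Irak4 by 0.17. The 0 h values of Nfkb1 and Irak4 both use the wild-type 0 h array.

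Between genotypes Il1a, Il1b and Il1rn were close at both times, Il1r1 and Il1r2 were lower in LysM-St18flox cells, and Il18, Il18bp and Il1rl1 were higher. At 3 h, 1 of 9 measured members was called higher in LysM-St18flox cells (1.82% of 13045 genes were) and 0 were lower (1.40% were). At 0 h, 1 of 9 was higher (3.04% of 12676 genes) and 1 lower (3.03%). The median member differed by 0.21 at 3 h, against -0.01 for all genes, and by -0.16 at 0 h, against -0.03 for all genes. In RNA from a mixed exudate, fewer cells of a type and less RNA per cell cannot be told apart.

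**Figure D4:**
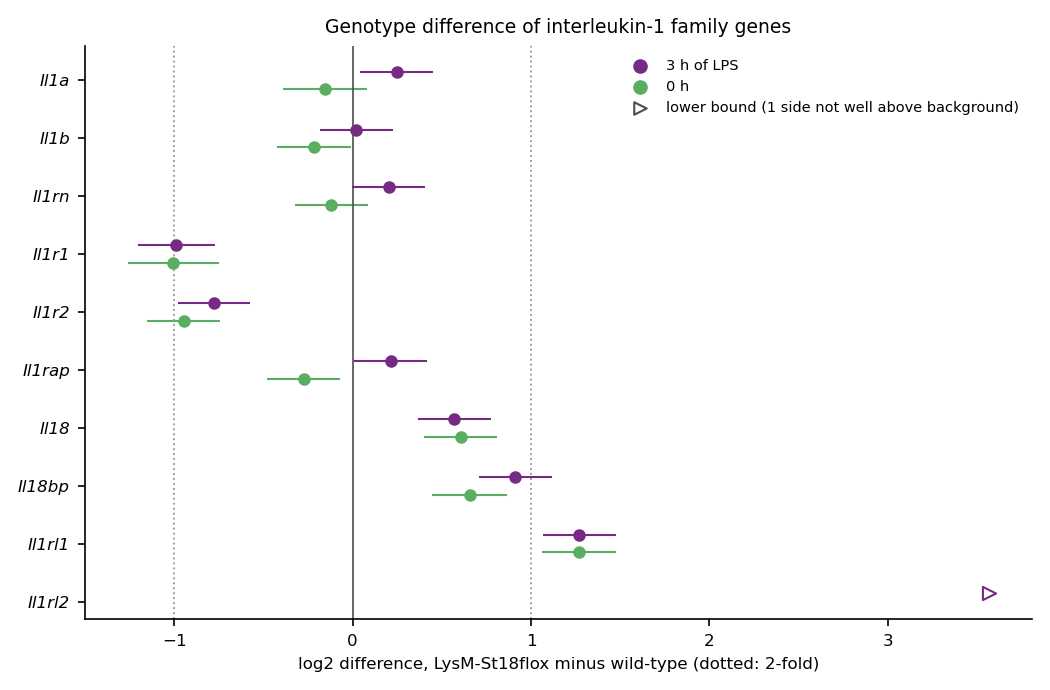
Log2 difference LysM-St18flox minus wild-type of each gene at 3 h and at 0 h; bars are the propagated signal error, dotted lines mark 2-fold and each value rests on 1 array per genotype. Il1rl1 lies at 1.27 at both times, and Il1r1 and Il1r2 lie below 0 at both times.

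Il1a differed by 0.25 ± 0.20 at 3 h and by -0.16 ± 0.24 at 0 h, and Il1b by 0.02 ± 0.20 at 3 h and -0.22 ± 0.21 at 0 h. Il1rn differed by 0.20 ± 0.20 at 3 h and -0.12 ± 0.20 at 0 h. None of these ligand values exceeded its signal error by much, and the sign was not the same at the 2 times. Il1rap differed by 0.21 ± 0.20 at 3 h and -0.27 ± 0.20 at 0 h on its brightest probe. On the probe of the other transcript it differed by 0.43 ± 0.21 at 3 h and 0.51 ± 0.29 at 0 h, so that its direction at 0 h turned with the probe.

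Il1rl1 read 1.11 at 3 h and 0.63 at 0 h in LysM-St18flox cells, against -0.16 at 3 h and -0.64 at 0 h in wild-type cells. It was 2.41-fold higher in LysM-St18flox cells at 3 h (1.27 ± 0.20, 132nd highest of 13045 genes) and 2.41-fold higher at 0 h (1.27 ± 0.21, 232nd highest of 12676). Both LysM-St18flox arrays lay above both wild-type arrays. Of its other 2 probes, one was above background in LysM-St18flox cells only, at both times, with bounds of at least 1.84-fold at 3 h and 1.16-fold at 0 h. The other was above background on the LysM-St18flox 3 h array only.

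ST2 is a surface receptor of mast cells, group 2 innate lymphoid cells and regulatory T cells, and its difference stood beside differences in several marker lists. Over all genes, 1.82% were called higher and 1.40% lower at 3 h, and 3.04% and 3.03% at 0 h. Of the mast cell list, 4 of 6 measured genes were called higher in LysM-St18flox cells at 3 h and 3 of 7 at 0 h. The summed scaled level of that list was 17.8 in LysM-St18flox and 16.0 in wild-type cells at 3 h, and 9.75 in LysM-St18flox and 5.25 in wild-type cells at 0 h. The mast cell protease genes Cma1 (2.32 at 3 h, 2.53 at 0 h) and Cpa3 (2.04 and 2.24) were higher, Kit differed by -0.07 and -0.24, and Ms4a2 was above background on none of the arrays. Of 6 eosinophil genes, 1 was called higher at 3 h and 3 at 0 h, with summed levels of 13.6 in LysM-St18flox against 7.68 in wild-type cells at 3 h, and 13.6 in LysM-St18flox against 6.88 in wild-type cells at 0 h; Epx and Prg2 were above background on none of the arrays. Of the T and NK cell list, 4 of 10 measured genes were called higher and 0 lower at 3 h, and 3 of 8 higher and 1 lower (Cd4, -1.04) at 0 h, with sums of 47.4 in LysM-St18flox against 41.5 in wild-type cells at 3 h, and 62.6 in LysM-St18flox against 55.2 in wild-type cells at 0 h. The brightest gene carried a large part of these sums. Hdc, the brightest of the mast cell list, differed by -0.38 at 3 h and -0.23 at 0 h, against the direction of the genes called. It was also higher after LPS, by 2.09 in LysM-St18flox and 2.24 in wild-type cells. Without Ear2 the eosinophil sum was 7.58 in LysM-St18flox against 4.16 in wild-type cells at 3 h. At 0 h it was 8.48 in LysM-St18flox against 4.06 in wild-type cells. Without Hdc the mast cell sum was 6.93 in LysM-St18flox against 1.89 in wild-type cells at 3 h, and 7.21 in LysM-St18flox against 2.25 in wild-type cells at 0 h. Without Il7r the T and NK cell sum was 11.5 in LysM-St18flox against 6.19 in wild-type cells at 3 h, and 9.23 in LysM-St18flox against 6.402 in wild-type cells at 0 h. The part of these cell types in the Il1rl1 difference was not tested.

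Il18bp was 1.88-fold higher in LysM-St18flox cells at 3 h (0.91 ± 0.20) and 1.58-fold higher at 0 h (0.66 ± 0.21). The second probe gave 0.91 and 0.75 at these times. Il18 was 1.49-fold higher at 3 h (0.57 ± 0.20) and 1.52-fold higher at 0 h (0.61 ± 0.20). For both genes the LysM-St18flox array lay above the wild-type array at each time, under the 2-fold line. Beside the marker lists that follow, 1.82% of all genes were called higher at 3 h and 3.04% at 0 h. The B cell list was higher in LysM-St18flox cells, with 6 of 8 genes called at 3 h and 7 of 8 at 0 h. Pax5, in the same list, went the other way, at -0.56 at 3 h and -0.26 at 0 h. The summed B cell levels were 18.6 in LysM-St18flox against 3.17 in wild-type cells at 3 h, and 23.4 in LysM-St18flox against 4.02 in wild-type cells at 0 h. Of the large peritoneal macrophage list, 5 of 11 measured genes were called higher at 3 h and 5 of 10 at 0 h, with sums of 31.9 in LysM-St18flox against 22.9 in wild-type cells at 3 h, and 29.3 in LysM-St18flox against 17.5 in wild-type cells at 0 h. The erythroid list was called higher for all 3 measured genes at both times, with sums of 93.7 in LysM-St18flox against 9.42 in wild-type cells at 3 h, and 79.9 in LysM-St18flox against 10.96 in wild-type cells at 0 h. The part of these lists in the Il18 and Il18bp differences was not tested.

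Il1r1 at 3 h was 1.99-fold lower in LysM-St18flox than in wild-type cells (-0.99 ± 0.22, 189th lowest of 13045 genes) and at 0 h was 2.01-fold lower (-1.01 ± 0.26, 381st lowest of 12676), on its only probe. Il1r2 was 1.71-fold lower at 3 h (-0.78 ± 0.20, 304th lowest) and 1.93-fold lower at 0 h (-0.95 ± 0.20, 489th lowest). Its second probe gave -0.64 at 3 h and -0.56 at 0 h. For both receptors each LysM-St18flox array lay below both wild-type arrays, and the calls at 0 h sit on the 2-fold line: Il1r1 is just past it and Il1r2 just short of it. With normexp background correction Il1r1 at 0 h was -0.68, short of the line, and with median scaling Il1r2 at 0 h was -1.09, past it.

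IL1R2 is abundant on neutrophils and IL1R1 on stromal cells, and the median of the list for each cell type was below 0. Across all genes, 1.82% were called higher and 1.40% lower at 3 h, and 3.04% and 3.03% at 0 h. Of 12 measured neutrophil genes, 6 were called lower and 1 higher in LysM-St18flox cells at 3 h (median -0.92), and 6 were lower and 0 higher at 0 h (median -1.21). The summed neutrophil level was 175 in LysM-St18flox and 251 in wild-type cells at 3 h, and 164 in both at 0 h. Csf3r, the brightest gene of the list, carried much of it, and without Csf3r the sum was 39.5 in LysM-St18flox against 115.3 in wild-type cells at 3 h, and 34.6 in LysM-St18flox against 83.2 in wild-type cells at 0 h. S100a9 differed by -2.74 at 3 h and -2.25 at 0 h, while Retnlg, the gene called higher at 3 h, differed by 1.11 and 0.81. Of the 12 measured neutrophil genes, 2 lay above 0 at 3 h and 5 at 0 h. Ngp was above background on none of the arrays. Of the mesothelial and fibroblast list, 8 of 10 measured genes were called lower at 3 h (median -1.53) and 6 of 9 at 0 h (median -1.10). Its summed level was 4.55 in LysM-St18flox against 13.2 in wild-type cells at 3 h, and 5.83 in LysM-St18flox against 12.4 in wild-type cells at 0 h, with the collagen gene Col3a1 at -1.98 and -2.03. The part of these cells in the Il1r1 and Il1r2 differences was not tested. Of 11 macrophage markers 0 were called at 3 h and 1 higher at 0 h, with sums of 739 in LysM-St18flox against 798 in wild-type cells at 3 h, and 638 in LysM-St18flox against 725 in wild-type cells at 0 h. Of the dendritic cell markers 0 of 7 were called at 3 h and 1 of 5 higher at 0 h, with sums of 157 in LysM-St18flox against 155 in wild-type cells at 3 h, and 129 in LysM-St18flox against 121 in wild-type cells at 0 h. Without the brightest, Siglech, the sum was 28.8 in LysM-St18flox against 17.6 in wild-type cells at 3 h, and 26.2 in LysM-St18flox against 15.9 in wild-type cells at 0 h; Xcr1 was above background on none of the arrays.

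Of the members, 4 receptor genes are neighbours on chromosome 1, where RefSeq orders the protein-coding genes Map4k4, Il1r2, Il1r1, Il1rl2, Il1rl1, Il18r1, Il18rap and Slc9a4. Along this order the genotype difference turned sign. Il1r2 and Il1r1 lay at -0.78 and -0.99 at 3 h, and Il1rl1 and Il18r1, the IL-18 receptor chain, at 1.27 and 0.89. At 0 h Il18r1 was 0.79 higher in LysM-St18flox cells. The accessory chain Il18rap differed by -0.33 at 3 h and at 0 h was lower by a minimum of 1.55-fold in LysM-St18flox cells. The flanking genes differed by -0.29 (Map4k4) and 0.06 (Slc9a4) at 3 h, and by -0.46 and 0.59 at 0 h.

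**Figure D5:**
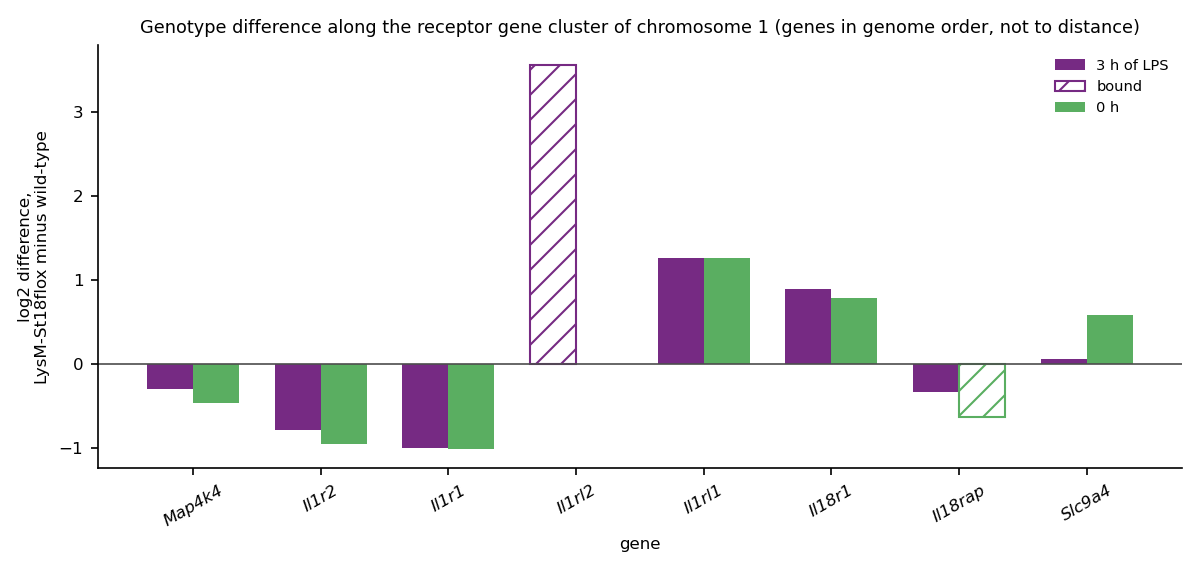
Log2 difference LysM-St18flox minus wild-type at 3 h (left bar) and 0 h (right bar) for the protein-coding genes around the receptor cluster, in genome order and not to distance; hatched bars are lower limits of the size of the difference, and each bar rests on 1 array per genotype. Il1r2 and Il1r1 lie below 0 at both times, and Il1rl1 and Il18r1 above 0 at both times.

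Il1a and Il1b lie side by side on chromosome 2, between Slc20a1 and Ckap2l on one side and F830045P16Rik and Sirpa on the other. The 2 neighbours measured in both genotypes lay below 0 with LPS. Slc20a1, a phosphate transporter, differed by -0.71 in LysM-St18flox cells and -0.45 in wild-type cells, and Sirpa, the receptor of CD47, by -0.31 in LysM-St18flox and -0.80 in wild-type cells. Ckap2l was higher after LPS by a minimum of 2.16-fold in LysM-St18flox cells and 2.48-fold in wild-type cells, and F830045P16Rik was above background on none of the arrays. Il1rn lies elsewhere on chromosome 2, next to Il1f10 and Psd4, and Psd4 differed by 0.69 in LysM-St18flox and 0.68 in wild-type cells.

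The likeness of profiles was measured as the root mean square difference between centred log2 profiles over the 4 arrays, where 0 means the same profile. Among 11580 other genes, the profile nearest to Il1a was that of Rsad2 (0.05), followed by Ch25h (0.07) and Il1b (0.09). The nearest to Il1b were Ch25h (0.08), Il1a (0.09) and Rsad2 (0.12). The 2 agonist ligands were thus the most alike pair of members, and the next pairs were Il1rn with Il18 (0.29) and Il1r1 with Il1r2 (0.34). Il1rl1 lay nearest to Gata1 (0.05), Serpina11 (0.07) and Plac8 (0.10). For the receptors, Il1r2 lay nearest to Cbr2 (0.02), Dtx4 (0.04) and Atp2a2 (0.05), and Il1r1 to Fam20a (0.07), Soat2 (0.09) and Mcemp1 (0.12). Il1rap, on its brightest probe, lay nearest to Olfr482 (0.01), Tifa (0.03) and Aim2 (0.03). Il1rn lay nearest to Pnp (0.04), Ccnyl1 (0.06) and Gdap10 (0.07), Il18 to Zfp800 (0.07), Tagap (0.08) and Mitd1 (0.08), and Il18bp to Jaml (0.08), Procr (0.10) and Shfl (0.13). With 4 arrays these likenesses are a description of these arrays only.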

How the data were processed

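Total RNA of 4 groups was measured on 1 single-colour (Cy3) Agilent array each. Spot intensity values are deposited as the authors' scanner output, with background removed by the scanning software per the file headers (Agilent Feature Extraction, version 11.0.1.1 in the submitters' processing notes). The deposited log2 value table (25482 probes) holds nearly the same sorted values for every array (largest gap 0.000362); how it was normalized is not stated in the labels, and it served as an alternative.

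From the processed signals, control spots and outlier flags were left out, spots of a probe averaged, and log2 values taken minus each array's 75th percentile. RefSeq accessions named 32989 of 35886 RefSeq probes, giving 22907 genes; 23616 probes stayed unnamed. A gene is its probe with the highest mean over the 4 arrays. Differences needed the probe well above background on both arrays. Where that held on 1 side only, a bound was taken against the dim probe's own signal or that array's lowest signal above background, whichever was higher. With 1 array a group there is no test, and the number of arrays limits the precision. Errors propagate the software's signal error of both arrays. All members are named, with up to 3 of the largest called differences each way and bounds of at least 2-fold of each related list, and the 3 nearest profiles of each member; marker genes, and neighbours in the gene order, are named beside the results they stand with. The members and lists were chosen with earlier results of these data known. The code was run on simulated arrays with changes planted in the wild-type LPS comparison. That run checks the arithmetic and not the precision of the real differences. Background correction with normexp (limma 3.58.1, R 4.3.3, offset 50) used the median spot signals, as the files hold no mean signal. Other steps used Python 3.11.15 with numpy 2.4.6 and pandas 2.3.3. Promoters are from RefSeq (GRCm38.p6).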

Additional observations from a re-analysis of the deposited data

Results flagged for a closer look

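For 5 members an effect had opposite signs in the groups being compared, and none of these differences was tested, since each rests on 1 array a group. The genotype difference was above 0 at 3 h and below 0 at 0 h for Il1a (0.25 and -0.16, 0.40 apart), Il1b (0.02 and -0.22, 0.24 apart), Il1rn (0.20 and -0.12, 0.32 apart) and Il1rap (0.21 and -0.27, 0.49 apart). The LPS response of Il1r2 was above 0 in LysM-St18flox cells and below 0 in wild-type cells (0.11 and -0.06, 0.17 apart). These signs are those of the brightest probes. The second Il1r2 probe was above 0 in both genotypes (0.19 in LysM-St18flox and 0.27 in wild-type cells). On the second Il1rap probe the genotype difference was above 0 at both times (0.43 at 3 h and 0.51 at 0 h).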

How the results depend on the processing

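The 36 member values (9 members in 4 comparisons) were recomputed under 7 alternatives. Of these values, 34 kept their sign and 32 kept their side of the 2-fold line under every alternative that gave a value. Some alternatives could not move a value. No background filter and the stricter filter on dim probes keep the same probe, so they return the same value or none. The mean of all probes returns the same value for the single-probe genes Il1a, Il1r1 and Il18. The sign changed for the LPS response of Il1r2 in wild-type cells (-0.11 to 0.11) and the genotype difference of Il1rap at 0 h (-0.42 to 0.12). The side changed for 4 values: the wild-type LPS responses of Il1rap (1.17 with the mean of all probes) and Il18bp (0.95 with normexp), and the 0 h genotype differences of Il1r1 (-0.68 with normexp) and Il1r2 (-1.09 with median scaling). Of members called by genotype at 0 h there were 2, but 3 with median scaling (1 higher, 2 lower), 1 with normexp and 1 with the stricter filter on dim probes, which leaves 7 measured; at 3 h there was 1, but 2 with no background filter, where Il1rl2 enters at 4.42. The difference of the LPS responses, whose alternatives were chosen after seeing the data, passed 2-fold for 0 members, but for 1 with no background filter. Median scaling moved the median of all genes to 0.14, against -0.09, in the LysM-St18flox LPS response and to -0.18, against -0.03, in the genotype difference at 0 h, so values near 0 there have no settled direction. No paired analysis was possible because each group has 1 array and the replicate numbers come from accession order only; for the same reason no replicate could be left out.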
